A study of Mus musculus with 12 samples.

Results

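The machinery that imports cholesterol into mouse granulosa cells and turns it into steroids was followed through 7 named genes: Scarb1, Star, Cyp11a1, Fdx1, Fdxr, Cyp17a1 and Hsd17b1. The genes were taken by name as steps of 1 pathway, with earlier results of these data known. Their counts and medians beside those of all genes are therefore descriptions and no test of the set. Each gene was read from a probe set that names only that gene. Where a gene had several such probe sets, the one with the highest mean over the arrays was used and the others served as a check. By this rule 6 of the 7 genes were measured, with 12 probe sets between them, among 18193 genes measured on the same arrays. Fdxr was not analysed here.

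Steroid synthesis begins with cholesterol, which cells take from circulating high-density lipoprotein through the scavenger receptor SR-B1, made from Scarb1. The StAR protein carries cholesterol to the inner mitochondrial membrane, where the side-chain cleavage enzyme CYP11A1 converts it to pregnenolone with electrons passed on by ferredoxin reductase and ferredoxin. In the ovary, theca cells are the main site of androgen synthesis through CYP17A1, granulosa cells make estradiol with the help of HSD17B1, and the ovulatory surge of luteinizing hormone turns granulosa cells towards progesterone.

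The cells were preovulatory granulosa cells cut by laser from the antral follicles of mice aged 3 weeks. The mice were bERKO animals, which lack estrogen receptor beta (gene Esr2), or wild-type (WT) animals. All 12 arrays came from mice given PMSG, a gonadotropin that makes follicles grow. The groups were bERKO mice taken 4 h after hCG, which stands in for the luteinizing hormone surge, WT mice taken 4 h after hCG, bERKO mice taken 48 h after PMSG with no hCG, and WT mice taken 48 h after PMSG with no hCG. Mice of the hCG groups received hCG after 48 h of PMSG. Each group had 3 arrays, called biological replicates by the labels. The number of animals behind an array, and whether arrays of a group came from separate animals, are not stated, so the p-values measure the spread between these arrays. The labels name no allele and no cell-specific driver for bERKO.

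Levels are given as quantile-normalized log2(intensity + 16), a scale whose floor is 4 and on which a difference of 1 is a doubling for bright probe sets. A level belongs to its own probe set and is not set against another gene's. A gene was called when limma's moderated test gave a Benjamini-Hochberg adjusted p under 0.05 over all 18193 genes. The number of arrays limits the precision. In tissue samples of this kind, fewer cells of a type and less RNA per cell cannot be told apart. The RNA of each array, 25 ng of total RNA, had been amplified before labelling. On 2 arrays the 3′ to 5′ ratio of the Gapdh control probe sets was high, at 32.2 for WT hCG replicate 1 and 23.7 for bERKO PMSG replicate 3, against 4.72 to 11.19 on the other 10 arrays. Results that rest on these 2 arrays are given with and without them.

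The targeted gene was read first. Esr2 had levels of 8.33, 8.13 and 8.52 on the bERKO hCG arrays, against 8.67, 9.52 and 8.78 on the WT hCG arrays. It had 8.18, 8.63 and 8.12 on the bERKO PMSG arrays, against 10.33, 9.01 and 9.33 on the WT PMSG arrays. All bERKO arrays lay below all WT arrays of the same treatment, but neither difference was called, at -0.66 after hCG (SE 0.37, limma adjusted p = 0.394) and -1.25 after PMSG (SE 0.37, limma adjusted p = 0.308). The position of this probe set with respect to the disruption is unknown here, so its level is a limited check of the genotype.

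The import and cleavage genes Scarb1, Star, Cyp11a1 and Fdx1 had their highest levels on the 3 bERKO hCG arrays, and Hsd17b1 had its lowest levels there. Folds are taken on the log2(intensity + 16) scale, which understates the change of dim probe sets. In bERKO cells, 4 h of hCG raised Star 90.3-fold, Cyp11a1 54.2-fold, Fdx1 3.69-fold and Scarb1 2.84-fold and lowered Hsd17b1 2.35-fold, while Cyp17a1 was not called. The Cyp11a1 rise of 5.76 on the log2 scale was 4.49 without bERKO PMSG replicate 3 and, with the second-brightest probe set, 0.38 and not called. In WT cells hCG raised Star 16.3-fold and no other gene of the machinery was called. That WT rise of Star, 4.02 on the log2 scale, was 5.29 without WT hCG replicate 1, and its call held in 10 of 23 alternatives. Between genotypes after hCG, Scarb1 was 2.29-fold higher in bERKO cells, and no gene of the machinery was called before hCG.

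Those counts are set beside the shares over all genes as a description, since the genes were chosen with earlier results of these data known. For the hCG response in bERKO cells, 5 of 6 genes were called, 4 higher and 1 lower, where 19% of all genes were called, 7.06% higher and 11.9% lower. The hCG response in WT cells had 1 of 6 called, against 2.11% of all genes, 0.737% higher and 1.37% lower. For bERKO against WT after hCG, 1 of 6 was called, against 3.17% of all genes, 1.58% higher and 1.59% lower. Before hCG, bERKO against WT gave 0 of 6 called by limma, against 0.011% of all genes. At an unadjusted p under 0.05 it gave 1 of 6, against 1736 of the 18193 genes. The difference between the bERKO response and the WT response gave 0 of 6 called by limma, against 1.32% of all genes. Of all genes, 0.682% were called higher and 0.643% lower. With an unadjusted p under 0.05 this comparison had 3 of 6, against 2786 of the 18193 genes.

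The medians over the 6 genes can be set beside those of all genes in the same comparison. The median difference was 1.70 for the hCG response in bERKO cells, where the median of all genes was -0.19, and 0.59 for the hCG response in WT cells, where it was -0.08. Between bERKO and WT cells the median was 0.91 after hCG, with all genes at -0.06, and -0.36 after PMSG, with all genes at 0.04. These comparisons share arrays with each other, so their medians are not independent of one another.

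**Figure D1:**
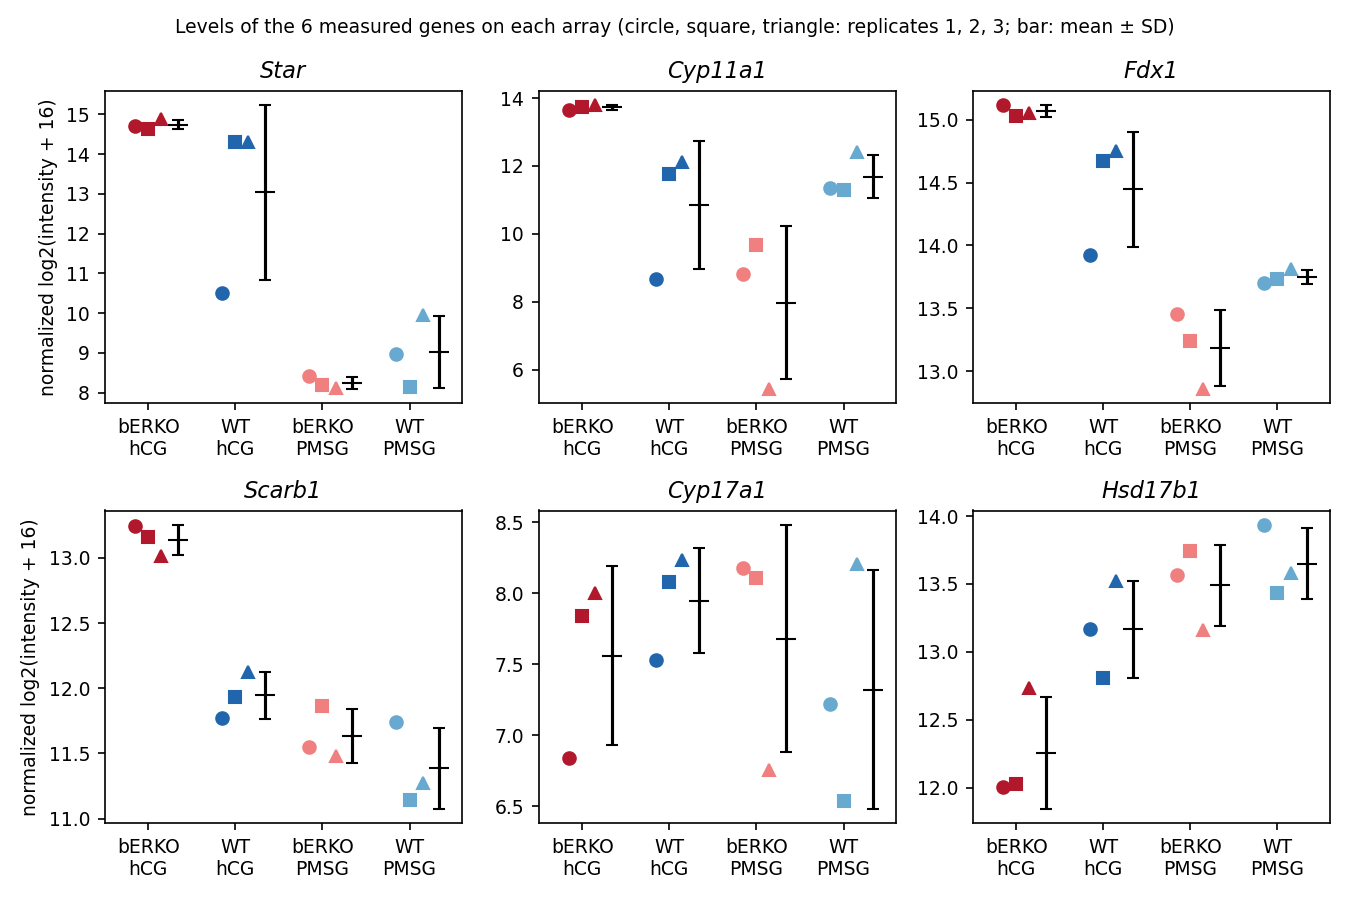
Levels of the 6 measured genes on each of the 12 arrays, as normalized log2(intensity + 16), with the 4 groups along the horizontal axis; points are arrays, and bars give the group mean and SD (n = 3). The 3 bERKO hCG arrays are the highest for Scarb1, Star, Cyp11a1 and Fdx1 and the lowest for Hsd17b1, and WT hCG replicate 1 lies far below the other WT hCG arrays for Star and Cyp11a1.

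The receptor for lipoprotein cholesterol was the 1 gene of the machinery whose genotype difference after hCG passed the test. Scarb1 had levels of 13.24, 13.16 and 13.01 on the bERKO hCG arrays, against 11.77, 11.93 and 12.13 on the WT hCG arrays. Its levels were 11.55, 11.87 and 11.48 on the bERKO PMSG arrays, against 11.74, 11.14 and 11.27 on the WT PMSG arrays. The bERKO hCG arrays stood apart above all others, the WT hCG arrays came next, and their lowest value lay inside the range of the bERKO PMSG arrays. The PMSG groups overlapped each other.

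The genotype difference of Scarb1 after hCG was 1.19 (SE 0.25, 95% interval 0.64 to 1.74, limma adjusted p = 0.0303). With hCG it rose by 1.51 in bERKO cells (SE 0.25, limma adjusted p = 0.00202), while the WT difference was 0.56 (SE 0.25, limma adjusted p = 0.284). The difference between the responses was 0.95 (SE 0.36, limma adjusted p = 0.231) and was not called, and the genotype difference before hCG was 0.25 (SE 0.25, limma adjusted p = 0.817). The genotype call after hCG held under 13 of 23 alternative settings, with a size of 1.11 to 1.46 and a limma adjusted p of 0.00801 to 0.104 over all of them. It was lost without bERKO hCG replicate 1, 2 or 3 (0.104, 0.0922 and 0.0623) and without WT hCG replicate 1 or 2 (0.09 and 0.0741).

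Star, which sets the rate at which cholesterol enters the mitochondrion, had levels of 14.71, 14.64 and 14.88 on the bERKO hCG arrays, against 10.50, 14.31 and 14.32 on the WT hCG arrays. It had 8.42, 8.19 and 8.13 on the bERKO PMSG arrays, against 8.98, 8.13 and 9.96 on the WT PMSG arrays. With the probe set used, all 6 hCG arrays lay above all 6 PMSG arrays, and the PMSG groups overlapped. Within the WT hCG group, replicate 1 lay far below the other arrays, and it was also the array with the highest Gapdh ratio.

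As group means Star stood at 14.74 ± 0.12 in bERKO hCG cells and 13.04 ± 2.20 in WT hCG cells (SD, n = 3 each), and at 8.25 ± 0.16 in bERKO PMSG cells and 9.02 ± 0.91 in WT PMSG cells (SD, n = 3 each). It rose with hCG in bERKO cells by 6.50 (SE 0.83, 95% interval 4.67 to 8.32, limma adjusted p = 0.000537). In WT cells it rose with hCG by 4.02 (SE 0.83, limma adjusted p = 0.0343). Without WT hCG replicate 1 the WT rise was 5.29 (limma adjusted p = 0.00034). The WT call was lost in 13 of the 23 alternatives, with adjusted p up to 0.335. Among these were all omissions of a single WT PMSG array (0.072 to 0.118), a single bERKO hCG array (0.0517 to 0.0569) and WT hCG replicate 2 (0.136) or 3 (0.0926).

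Between genotypes, Star differed by 1.70 after hCG (SE 0.83, 95% interval -0.12 to 3.52, limma adjusted p = 0.327), with every bERKO array above every WT array. The difference was 0.43 without WT hCG replicate 1 (limma adjusted p = 0.77). Before hCG the genotype difference was -0.77 (SE 0.83, limma adjusted p = 0.825). The bERKO response exceeded the WT response by 2.47, an amount not called (SE 1.18, 95% interval -0.10 to 5.05, limma adjusted p = 0.349), and by 1.21 without WT hCG replicate 1.

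Cyp11a1 and Fdx1 encode the cleavage enzyme and the ferredoxin that feeds it electrons, and both were called in the bERKO response, so the RefSeq bases before their starts are shown (build GRCm38.p6, 250 bases each, 5′ to 3′ on the gene's strand). The promoter table matched 2 of the 6 measured genes. Both lie on chromosome 9, and Cyp11a1 has 2 listed starts. The windows are chr9:57997774-57998023 on the plus strand for the first Cyp11a1 start, chr9:58014702-58014951 on the plus strand for the second, and chr9:51963603-51963852 on the minus strand for Fdx1. Capitals mark matches to the 6 motifs searched on both strands.
Cyp11a1 start 1: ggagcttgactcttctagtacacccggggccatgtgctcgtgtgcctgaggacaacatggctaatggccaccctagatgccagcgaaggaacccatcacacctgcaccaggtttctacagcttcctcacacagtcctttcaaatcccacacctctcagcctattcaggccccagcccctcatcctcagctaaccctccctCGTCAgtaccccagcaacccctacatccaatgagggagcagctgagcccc
Cyp11a1 start 2: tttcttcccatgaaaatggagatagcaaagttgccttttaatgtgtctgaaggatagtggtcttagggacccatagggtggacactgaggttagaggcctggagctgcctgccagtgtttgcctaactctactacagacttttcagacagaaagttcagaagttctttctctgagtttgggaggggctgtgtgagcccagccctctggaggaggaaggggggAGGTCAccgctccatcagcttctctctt
Fdx1: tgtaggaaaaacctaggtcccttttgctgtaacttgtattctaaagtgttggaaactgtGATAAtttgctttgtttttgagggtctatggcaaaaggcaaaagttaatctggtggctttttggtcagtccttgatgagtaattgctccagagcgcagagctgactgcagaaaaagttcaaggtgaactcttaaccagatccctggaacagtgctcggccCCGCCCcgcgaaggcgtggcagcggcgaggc

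The first Cyp11a1 window held the cyclic AMP response element core TGACG on the opposite strand, printed as CGTCA, with its first base 50 bases before the start. This motif occurred in 17.8% of 32851 promoter windows of the same length. The second Cyp11a1 window held AGGTCA, the core of the half-site bound by the NR5A receptors, 28 bases before the start, and 14% of windows held it. The Fdx1 window held the Sp1 box GGGCGG on the opposite strand, printed as CCGCCC, 31 bases before the start, and the GATA core GATAA 191 bases before it. These letters occurred in 32.7% and 22.6% of windows. The other motifs searched were the TATA box TATAAA, in 12.4% of windows, and the estrogen response element GGTCANNNTGACC, in 0.0639%, and neither occurred in these windows. The letters GGTCA are common to the NR5A half-site and the estrogen response element. A match is a description of letters and not of binding.

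Cyp11a1 was the gene of the machinery with the widest spread between arrays. Its levels were 13.65, 13.74 and 13.80 on the bERKO hCG arrays, against 8.68, 11.76 and 12.12 on the WT hCG arrays. They were 8.82, 9.68 and 5.43 on the bERKO PMSG arrays, against 11.35, 11.29 and 12.42 on the WT PMSG arrays. The bERKO hCG arrays agreed closely and lay above all others. The WT hCG arrays overlapped both PMSG groups, while the bERKO PMSG arrays all lay below the WT PMSG arrays. The low arrays inside their groups were WT hCG replicate 1 and bERKO PMSG replicate 3, the arrays with the high Gapdh ratios, and the deposited bERKO PMSG intensities ran from 16.7 on replicate 3 to 796.

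With hCG, Cyp11a1 rose in bERKO cells by 5.76 (SE 1.04, limma adjusted p = 0.00308), and by 4.49 without bERKO PMSG replicate 3. In WT cells the difference was -0.84 (SE 1.04, 95% interval -3.10 to 1.43, limma adjusted p = 0.76), and it turned to 0.25 without WT hCG replicate 1. The bERKO response exceeded the WT response by 6.59 (SE 1.47, 95% interval 3.39 to 9.80), just short of the threshold at a limma adjusted p of 0.053. Without both arrays of high Gapdh ratio the excess was 4.23 (limma adjusted p = 0.0319). It was also called without bERKO PMSG replicate 2 (0.0397) or WT hCG replicate 3 (0.041). Over the alternatives the adjusted p ran from 0.0282 to 0.78, the last with the second-brightest probe set, for which the excess was 0.82.

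The genotype differences of Cyp11a1 pointed opposite ways before and after hCG without being called. After hCG it was 2.88 higher in bERKO cells (SE 1.04, 95% interval 0.61 to 5.15, limma adjusted p = 0.163), with no overlap, and 1.79 higher without WT hCG replicate 1. After PMSG alone the difference was -3.71 (SE 1.04, 95% interval -5.98 to -1.45, limma adjusted p = 0.298), again with no overlap, and -2.44 without bERKO PMSG replicate 3.

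Fdx1 had levels of 15.12, 15.03 and 15.05 on the bERKO hCG arrays, against 13.92, 14.67 and 14.75 on the WT hCG arrays. Its levels were 13.45, 13.24 and 12.86 on the bERKO PMSG arrays, against 13.70, 13.73 and 13.81 on the WT PMSG arrays. No neighbouring groups overlapped: bERKO hCG stood highest, then WT hCG, WT PMSG and bERKO PMSG. Replicate 1 was again the lowest WT hCG array and replicate 3 the lowest bERKO PMSG array.

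Fdx1 rose with hCG in bERKO cells by 1.88 (SE 0.28, limma adjusted p = 0.00106). In WT cells the difference was 0.70 (SE 0.28, limma adjusted p = 0.223), and 0.96 without the 2 arrays of high Gapdh ratio, where it was called (limma adjusted p = 0.0402). The genotype difference was 0.62 after hCG (SE 0.28, limma adjusted p = 0.272) and -0.57 after PMSG (SE 0.28, limma adjusted p = 0.557). Without WT hCG replicate 1 the difference after hCG was 0.36. The excess of the bERKO response over the WT response was 1.19 (SE 0.39, limma adjusted p = 0.171), and 0.76 without both arrays of high Gapdh ratio.

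Cyp17a1, the androgen-forming enzyme of theca cells, showed no ordered groups. Its levels were 6.84, 7.84 and 8.00 on the bERKO hCG arrays, against 7.53, 8.08 and 8.23 on the WT hCG arrays. It had 8.18, 8.11 and 6.76 on the bERKO PMSG arrays, against 7.22, 6.53 and 8.20 on the WT PMSG arrays. All groups overlapped, and the group means ran only from 7.32 to 7.95. The hCG difference was -0.12 in bERKO cells (SE 0.51, 95% interval -1.23 to 0.99, limma adjusted p = 0.901) and 0.63 in WT cells (SE 0.51, limma adjusted p = 0.599). The genotype difference was -0.39 after hCG (SE 0.51, limma adjusted p = 0.775) and 0.36 after PMSG (SE 0.51, limma adjusted p = 0.872).

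Hsd17b1, which makes estradiol from estrone in granulosa cells, ran the other way from the import genes. Its levels were 12.01, 12.03 and 12.73 on the bERKO hCG arrays, against 13.17, 12.81 and 13.52 on the WT hCG arrays. They were 13.57, 13.74 and 13.16 on the bERKO PMSG arrays, against 13.94, 13.43 and 13.58 on the WT PMSG arrays. On these normalized levels the bERKO hCG arrays lay below all others, and the other groups overlapped their neighbours. In deposited intensity bERKO hCG replicate 3, at 6959, lay above WT hCG replicate 2, at 6434.

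With hCG Hsd17b1 fell by 1.23 in bERKO cells (SE 0.31, limma adjusted p = 0.0163), a call that held in 20 of 23 alternatives and was lost without bERKO PMSG replicate 2 (limma adjusted p = 0.0512), bERKO hCG replicate 1 (0.0634) or bERKO hCG replicate 2 (0.0625). In WT cells the difference was -0.48 (SE 0.31, limma adjusted p = 0.474). The genotype difference was -0.91 after hCG (SE 0.31, limma adjusted p = 0.137) and -0.16 after PMSG (SE 0.31, limma adjusted p = 0.915). The responses differed by -0.75 (SE 0.43, limma adjusted p = 0.446).

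**Figure D2:**
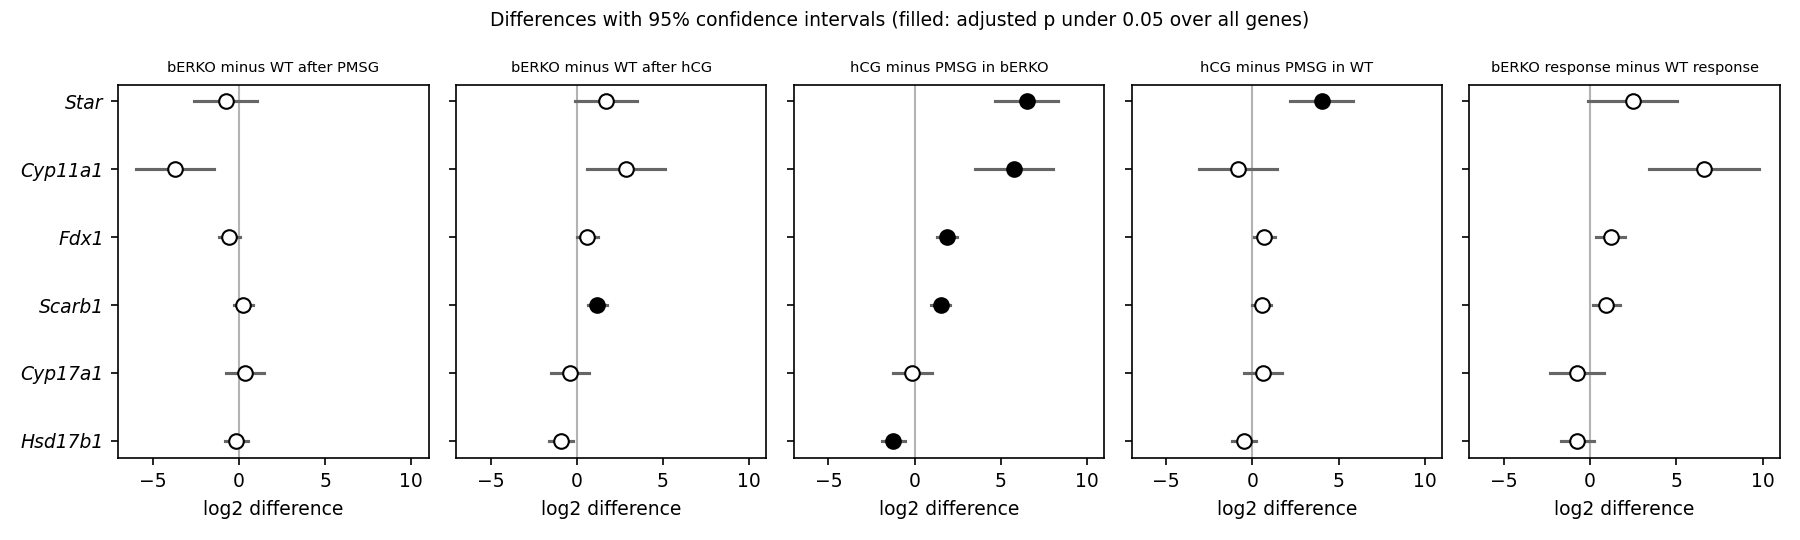
Log2 differences of the 6 measured genes in the 5 comparisons, with 95% intervals from limma; filled points passed the adjusted threshold. In the bERKO response 5 of 6 points are filled, led by Star at 6.50 and Cyp11a1 at 5.76, and no gene is called between genotypes after PMSG.

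Arrays were also counted alone, on the normalized levels and without the test. Between bERKO and WT after hCG, 5 of the 6 genes had groups that did not overlap, 4 higher in bERKO cells and Hsd17b1 lower. Of all genes, 24.5% did not overlap, 11.4% higher and 13.2% lower. In deposited intensity the Hsd17b1 groups overlapped. Before hCG, 2 of the 6 did not overlap, Cyp11a1 and Fdx1, both lower in bERKO cells, where 14.7% of all genes did not overlap, 8.14% higher and 6.58% lower. For the response to hCG, 5 of 6 did not overlap in bERKO cells, against 36.2% of all genes (13.3% higher and 22.9% lower). In WT cells Star, Fdx1 and Scarb1, 3 of 6, did not overlap, all higher after hCG, against 24% of all genes (8.79% higher and 15.2% lower). For Scarb1 the nearest WT arrays read 11.77 after hCG and 11.74 after PMSG, and in deposited intensity they overlapped, at 3425 and 3441. With the other probe sets of Star and Scarb1 the WT groups overlapped.

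Star, Cyp11a1 and Scarb1 have 3 probe sets each, which were compared within each gene. The other Star probe sets rose with hCG in bERKO cells by 8.41 and 7.82, both called by limma, and had WT differences of 4.09 and 2.98 that were not called (limma adjusted p = 0.201 and 0.326, over all probe sets). Both put WT hCG replicate 1 low, at 6.27 and 6.81, where the other WT hCG arrays read between 13.35 and 13.77. So all the Star probe sets placed that array apart from its group. The probe sets not used read it inside their PMSG ranges, 4.92 to 7.84 and 6.42 to 9.47.

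For Cyp11a1 the probe sets disagreed. The other pair had bERKO responses of 0.38 and 0.39, neither called (limma adjusted p = 0.77 and 0.457). The dimmer of them read between 4.60 and 5.73 on all arrays, close to the floor of 4. The brighter of them read 9.73 on bERKO PMSG replicate 3, where the probe set used read 5.43. The statements on Cyp11a1 therefore rest on 1 probe set. For Scarb1 the other probe sets gave bERKO responses of 1.61 and 1.66, both called by limma, and genotype differences after hCG of 1.31 and 1.27 that were not called (limma adjusted p = 0.0975 and 0.0506). Fdx1, Cyp17a1 and Hsd17b1 had 1 probe set each.

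**Figure D3:**
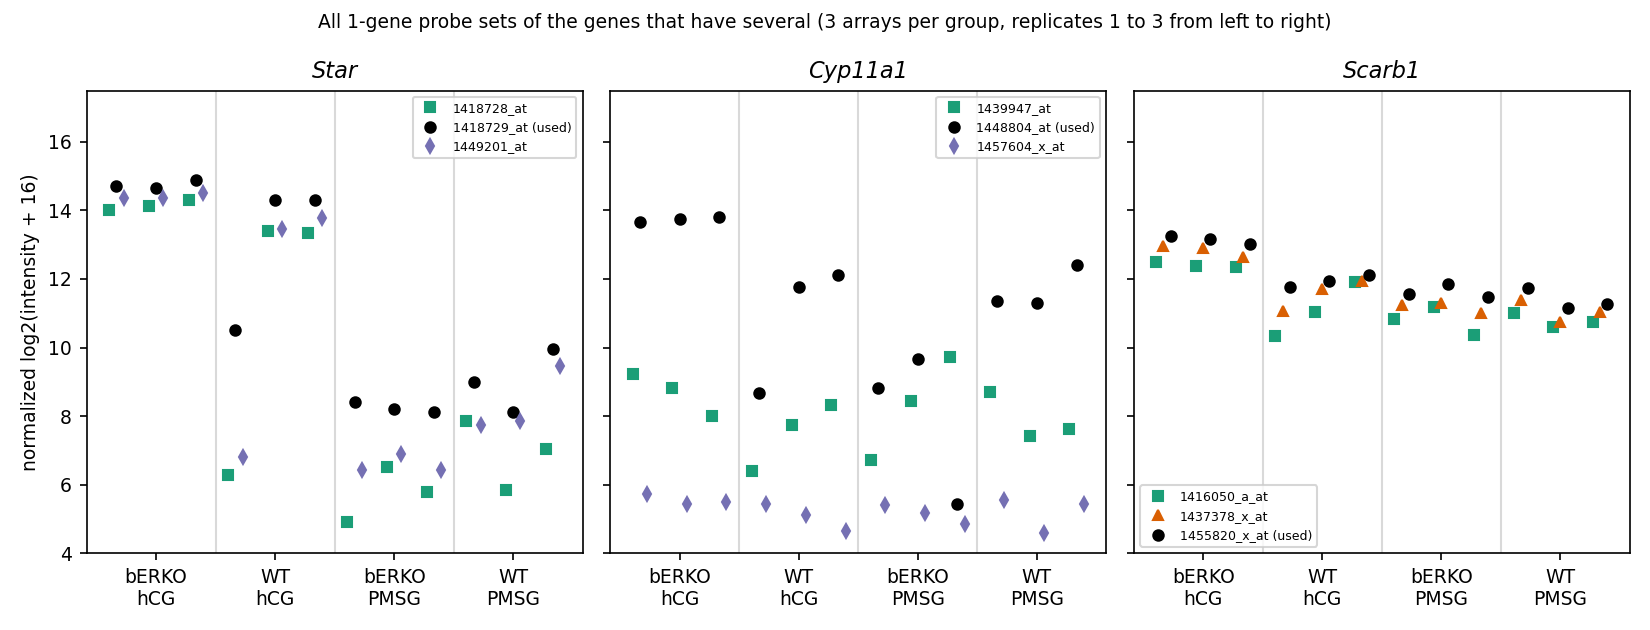
Levels of every 1-gene probe set of Star, Cyp11a1 and Scarb1 on the 12 arrays, as normalized log2(intensity + 16), with arrays ordered by group and replicate along the horizontal axis. The Star and Scarb1 probe sets move together, while 2 of the 3 Cyp11a1 probe sets lack the rise on the bERKO hCG arrays.

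**Figure D4:**
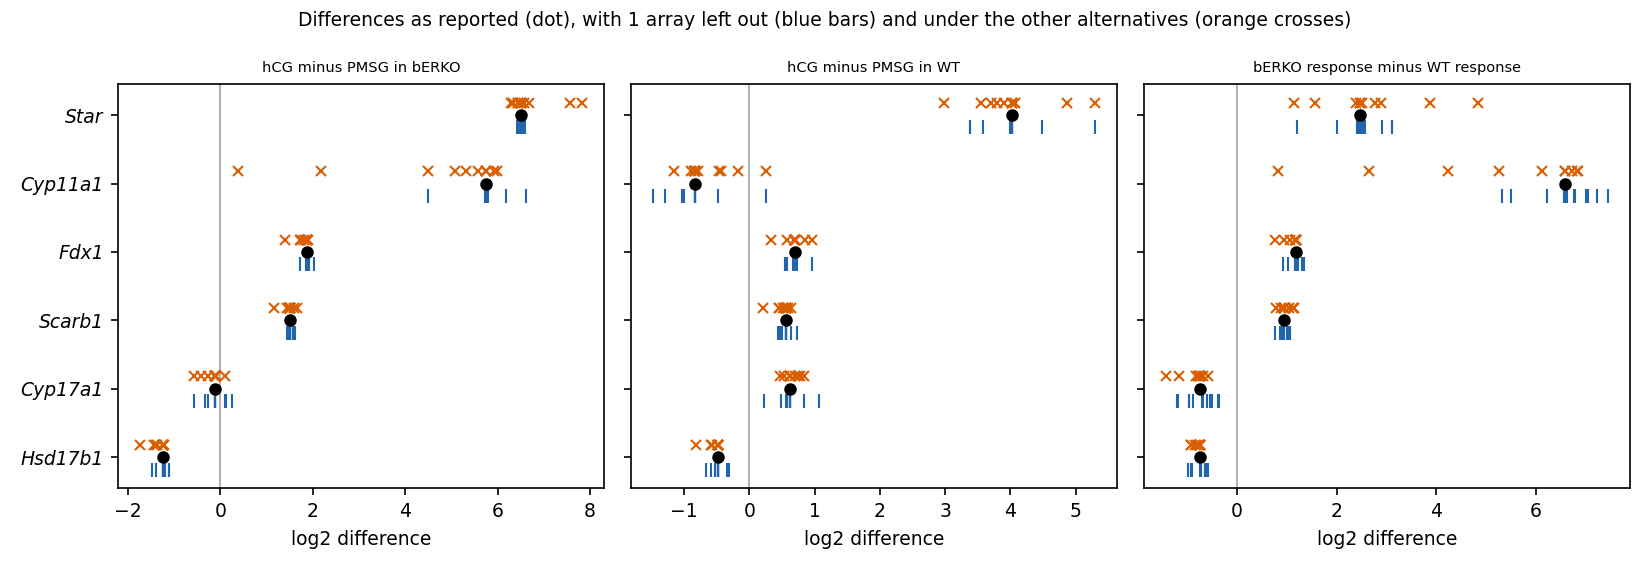
Log2 differences of the 6 measured genes in the bERKO response, the WT response and their difference, with dots for the values reported, bars for fits that leave out 1 array and crosses for the other alternatives. All genes but Cyp17a1 keep their direction in the bERKO response under every setting drawn, and Cyp11a1 drops to 0.38 with its second-brightest probe set.

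Over the 12 arrays, the levels of Star and Fdx1 moved most alike among the 6 genes, with a Pearson r of 0.96. The value was 0.85 for Cyp11a1 with Fdx1, 0.82 for Star with Scarb1, 0.82 for Fdx1 with Scarb1 and 0.72 for Star with Cyp11a1. Hsd17b1 ran opposite, at -0.81 with Scarb1 and -0.74 with Star, and Cyp17a1 was between 0.10 and 0.28 with every other gene. These values are descriptions, since the arrays share groups, RNA quality and scaling.

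Among 9271 genes with a mean level of at least 7 and an established symbol, the genes most like each member over the 12 arrays were listed by Pearson r. For Star they were Bmper, Btc, which encodes the EGF-family ligand betacellulin, and Pcsk5, each at 0.98. For Cyp11a1 they were Gabrb2 at 0.96 and Sfrp4 and Mrfap1 at 0.95. For Fdx1 they were Prrc2c, Sgtb and Itga2 at 0.98. The closest to Scarb1 were Phf20l1, Pde4b, a cyclic AMP phosphodiesterase, and Il7, each at 0.95. Hsd17b1 was closest to Ndc1 and Smim10l2a at 0.97 and Gen1 at 0.95, whereas Cyp17a1 reached only 0.83 with Apbb3 and 0.71 with Aven and Pabpc4.

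The neighbouring steps of the pathway were read from lists of other cholesterol delivery genes, other steroid synthesis genes and regulators, of which 44 of 56 genes were measured. Of the 12 measured cholesterol delivery genes, only Stard4, a cholesterol carrier, was called in any comparison. It was 1.58 higher in bERKO than WT cells after hCG (limma adjusted p = 0.0148) and fell by 1.43 with hCG in WT cells (limma adjusted p = 0.0264). Of all genes, 3.17% were called in the first comparison and 2.11% in the other. The first call was lost without bERKO hCG replicate 1 or 2 or WT hCG replicate 1 (limma adjusted p 0.0551 to 0.0636), and the other without any 1 of the WT PMSG arrays or WT hCG replicate 2 or 3 (0.0646 to 0.111). With the second-brightest Stard4 probe set neither difference was called (1.94 and -1.81, limma adjusted p = 0.0857 and 0.125). The median over the list was 0.20 for the first of these comparisons and -0.12 for the other.

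Of the 11 other steroid synthesis genes measured, 2 were higher in bERKO than WT cells after hCG, against 1.58% of all genes. With hCG in bERKO cells 2 rose and 1 fell, where 7.06% of all genes rose and 11.9% fell. Hsd17b7, a ketosteroid reductase that also serves cholesterol synthesis, had levels of 14.03, 14.08 and 12.47 on the bERKO hCG arrays, against 10.14, 10.31 and 10.01 on the WT hCG arrays. It had 10.92, 11.09 and 11.29 on the bERKO PMSG arrays, against 11.41, 11.19 and 12.13 on the WT PMSG arrays. The bERKO hCG arrays were high and the WT hCG arrays low, with no overlap with any other group.

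The Hsd17b7 difference after hCG was 3.37 (SE 0.41, limma adjusted p = 0.00398), and its rise with hCG in bERKO cells was 2.43 (SE 0.41, limma adjusted p = 0.00231). The bERKO response exceeded the WT response by 3.85 (limma adjusted p = 0.0127), the only call of the list in that comparison, where 1.32% of all genes were called. Cyp11b1, best known for glucocorticoid synthesis in the adrenal cortex, was 1.68 higher after hCG in bERKO than WT cells (limma adjusted p = 0.0374) and rose by 1.87 with hCG in bERKO cells (limma adjusted p = 0.00561), with dim levels of 7.29, 6.77 and 6.25 on the bERKO hCG arrays and 5.07, 5.45 and 4.76 on the WT hCG arrays. Hsd17b11 fell by 1.14 with hCG in bERKO cells (limma adjusted p = 0.0429), and its second-brightest probe set gave 0.38. When 1 array was left out, the Hsd17b11 call was lost in 9 of 12 cases (limma adjusted p up to 0.138) and the Cyp11b1 genotype call in 8 of 12 (up to 0.134), while no Hsd17b7 call was. With the second-brightest probe set Hsd17b7 missed the threshold for the genotype difference after hCG (3.71, limma adjusted p = 0.0541) and for the difference of responses (6.07, limma adjusted p = 0.0535). No gene of this list was called between genotypes after PMSG or in the WT response.

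After hCG, 1.59% of all genes were called lower in bERKO than WT cells and 1.58% higher. Of the 21 measured regulators, 4 were lower in that comparison and none was higher. They were Foxo1, a transcription factor held in check by gonadotropin signalling in granulosa cells, at -2.63 (limma adjusted p = 0.00216), the receptor gene Fshr at -2.62 (limma adjusted p = 0.0204), Gata4, a transcription factor of steroidogenic genes, at -2.58 (limma adjusted p = 0.00632), and Foxl2, which keeps granulosa cell identity, at -1.70 (limma adjusted p = 0.0342). Leaving out 1 array ended the Foxl2 call in 7 of 12 cases (limma adjusted p up to 0.092) and the Fshr call without any 1 of the bERKO hCG arrays or WT hCG replicate 1 (up to 0.0809), but neither that of Foxo1 nor that of Gata4. With the second-brightest probe set the Gata4 difference was -1.75 (limma adjusted p = 0.0547) and the Foxl2 difference -1.27 (limma adjusted p = 0.216), neither of them called. In the hCG response of bERKO cells, where 7.06% of all genes rose and 11.9% fell, 6 regulators rose and 5 fell. Among those that rose were Nr4a1, an orphan nuclear receptor induced by luteinizing hormone, by 3.99 (limma adjusted p = 0.00106), Crem, a cyclic AMP-responsive factor, by 3.64 (limma adjusted p = 0.0049), the transcription co-regulator gene Cited2 by 1.90 (limma adjusted p = 0.00342) and Gnas, the stimulatory G protein, by 1.11 (limma adjusted p = 0.00667). The Gnas call was lost with median centring (0.64, limma adjusted p = 0.125) and with the mean of all probe sets (0.89, limma adjusted p = 0.0507). In WT cells the hCG difference of Crem was 1.62 and not called (limma adjusted p = 0.274). Crem read 7.24 on WT hCG replicate 1, the array with the highest Gapdh ratio, and 10.90 and 10.27 on WT hCG replicates 2 and 3.

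Among those that fell with hCG in bERKO cells were Esr1, the other estrogen receptor, at -3.47 (limma adjusted p = 0.000149) and Foxo1 at -2.95 (limma adjusted p = 0.000179). In WT cells 0.737% of all genes were called higher with hCG. Of the regulators 2 rose there, Nr4a1 by 3.03 (limma adjusted p = 0.027) and Cebpb, a factor of luteinizing granulosa cells, by 1.36 (limma adjusted p = 0.0323). The bERKO response lay below the WT response for 2 regulators, Foxo1 and Esr1, against 0.643% of all genes. When 1 array was left out, the WT calls were lost in 4 of 12 cases for Nr4a1 (limma adjusted p up to 0.0959) and 7 of 12 for Cebpb (up to 0.123), and the Esr1 difference of responses in 7 of 12 (up to 0.0617). No regulator was called between genotypes after PMSG.

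**Figure D5:**
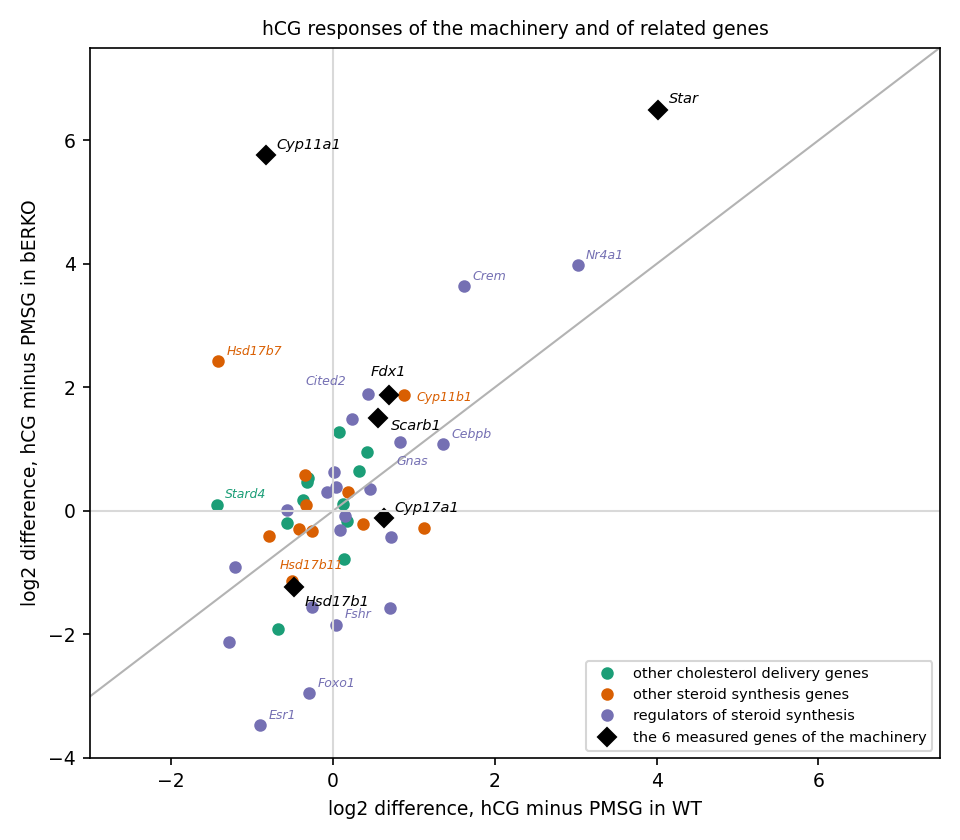
The hCG response in bERKO cells (vertical axis) against that in WT cells (horizontal axis), both as log2 differences of group means, for the 6 measured genes (diamonds) and the 44 related genes (circles); the diagonal marks equal responses. Star lies far out on both axes, Cyp11a1 and Hsd17b7 lie above 0 in bERKO cells and below 0 in WT cells, and Foxo1 and Esr1 lie well below the diagonal.

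Markers of the cells a laser cut can hold were read on the same arrays, as the range of their summed deposited intensity per array. Of 13 measured granulosa markers, which include Hsd17b1, 5 were lower in bERKO than WT cells after hCG, against 1.59% of all genes. With hCG in bERKO cells 7 fell, against 11.9% of all genes. In the bERKO response 2 were lower than in the WT response, against 0.643% of all genes. None of these markers was called in the other comparisons. Their sum was 79927 to 95438 on the bERKO hCG arrays and 111102 to 152411 on the WT hCG arrays, with 149578 to 169929 on the bERKO PMSG arrays and 134988 to 160311 on the WT PMSG arrays. The inhibin gene Inha had group mean levels between 13.98 and 14.31, whereas Amh was under an intensity of 16 on 8 arrays. No detection calls were used. Of the leukocyte markers, Cd14 was under an intensity of 16 on all 12 arrays.

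The 11 theca and interstitium markers, which include Cyp17a1, summed to 11204 to 14653 on the bERKO hCG arrays and 16408 to 18971 on the WT hCG arrays, with 17897 to 23205 on the bERKO PMSG arrays and 19708 to 20850 on the WT PMSG arrays. The mean log2 level over the same markers ran in another order, at 8.47 on the bERKO hCG arrays and 8.27 on the WT hCG arrays, with 7.82 on the bERKO PMSG arrays and 8.08 on the WT PMSG arrays. With hCG in bERKO cells 4 rose and 2 fell, where 7.06% of all genes rose and 11.9% fell. After hCG 1 was lower in bERKO than WT cells, against 1.59% of all genes. The hedgehog target Gli1 was under an intensity of 16 on 11 arrays. The 6 luteal markers, which include Sfrp4, had their highest sums on the bERKO hCG arrays, with 23693 to 32222 on the bERKO hCG arrays and 3576 to 12911 on the WT hCG arrays, and 3520 to 4947 on the bERKO PMSG arrays and 5493 to 9842 on the WT PMSG arrays. Of these, 4 rose with hCG in bERKO cells, 1 fell with hCG in WT cells, 1 was higher in bERKO than WT cells after hCG, and 3 had a larger bERKO response. Over all genes these shares were 7.06%, 1.37%, 1.58% and 0.682% in the same order.

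Markers of vessels, stroma and leukocytes also summed higher on every bERKO hCG array than on any WT hCG array. The 12 endothelial markers summed to 1418 to 2899 on the bERKO hCG arrays and 444 to 649 on the WT hCG arrays, with 189 to 468 on the bERKO PMSG arrays and 417 to 744 on the WT PMSG arrays. Of them, 4 were higher in bERKO than WT cells after hCG, 5 rose with hCG in bERKO cells and 2 had a larger bERKO response. Over all genes these shares were 1.58%, 7.06% and 0.682% in the same order. The 12 stromal and smooth muscle markers summed to 4233 to 16681 on the bERKO hCG arrays and 2155 to 3029 on the WT hCG arrays, with 998 to 4050 on the bERKO PMSG arrays and 690 to 7218 on the WT PMSG arrays. The 12 leukocyte markers summed to 818 to 2151 on the bERKO hCG arrays and 312 to 638 on the WT hCG arrays, with 300 to 973 on the bERKO PMSG arrays and 210 to 568 on the WT PMSG arrays. In the stromal and leukocyte lists 2 markers each rose with hCG in bERKO cells, where 7.06% of all genes rose, and none was called elsewhere.

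The 13 oocyte markers were instead high on the bERKO PMSG arrays, at 7567 to 22498, against 701 to 5997 on the WT PMSG arrays, and they summed to 1429 to 3450 on the bERKO hCG arrays and 1089 to 2003 on the WT hCG arrays. None of them was called between genotypes after PMSG. Their mean log2 level was 8.30 on WT PMSG replicate 3, against 5.87 and 6.18 on WT PMSG replicates 1 and 2. Of the oocyte markers, 7 fell with hCG in bERKO cells, where 11.9% of all genes fell. The part of endothelial, stromal, leukocyte and oocyte RNA in the differences of Scarb1, Star, Cyp11a1, Fdx1 and Hsd17b1 was not tested.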

How the data were processed

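The deposited values are microarray intensities, 1 per probe set and array, and the values show that the authors scaled each array to a 2% trimmed mean of 500. Names of the software are not given in the sources used here. Of 45101 probe sets, 64 controls were left out. Of the 45037 kept, 34945 name 1 gene, 932 name several and the remaining 9160 name no gene.

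The deposited intensities were taken as log2(intensity + 16). The array medians differed by 0.98, more than 0.5, so the 12 arrays were quantile normalized. The brightest 1-gene probe set stood for each of 18193 genes. Group means were compared with limma 3.58.1 in R 4.3.3 over all 12 arrays, two-sided, with Benjamini-Hochberg adjustment and a threshold of 0.05. The fit was tested on simulated data. Figures were drawn with matplotlib 3.10.9.

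The members, the related gene lists and the marker lists were chosen with earlier results of these data known. Named from the related lists were the genes called, up to 6 per list and comparison by smallest p, plus Esr2. The 3 genes with the highest r were named per member. Promoters came from RefSeq. The alternatives changed the offset, the scaling, the probe set, the filter on dim genes, the replicate block, the arrays in the fit and the array weights. Listed genes with no 1-gene probe set were not analysed here.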

Additional observations from a re-analysis of the deposited data

Results flagged for a closer look

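For 3 related genes the response to hCG differed between bERKO and WT cells by limma's test of the difference itself, given as the bERKO response minus the WT response. Hsd17b7 differed by 3.85 (limma adjusted p = 0.0127), with a log2 response of 2.43 in bERKO cells and -1.42 in WT cells. Foxo1 differed by -2.65 (limma adjusted p = 0.0134), with levels of 11.75, 11.83 and 10.80 on the bERKO hCG arrays against 14.42, 14.35 and 14.45 on the bERKO PMSG arrays, and of 14.14, 13.90 and 14.22 on the WT hCG arrays against 14.44, 14.46 and 14.25 on the WT PMSG arrays. Esr1 differed by -2.56 (limma adjusted p = 0.0229), with levels of 7.06, 6.13 and 6.39 on the bERKO hCG arrays against 9.99, 10.34 and 9.65 on the bERKO PMSG arrays, and of 7.87, 8.06 and 7.41 on the WT hCG arrays against 8.75, 8.43 and 8.87 on the WT PMSG arrays. The Esr1 difference was called in 13 of 22 alternatives and was lost with the second-brightest probe set (-3.91, limma adjusted p = 0.0827), with an offset of 1 (limma adjusted p = 0.0509) and in 7 of 12 fits that leave out 1 array. That of Hsd17b7 was lost with the second-brightest probe set (6.07, limma adjusted p = 0.0535). For Hsd17b7 and Foxo1, bERKO hCG replicate 3 had the lowest level of its group.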

How the results depend on the processing

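Of 1299 single-gene values recomputed under 23 alternatives, 12 of which leave out 1 array, 1150 kept their sign and their side of the threshold, 119 lost a call, 10 gained one and 20 changed sign. The count of machinery genes called between bERKO and WT after hCG, 1, became 0 with an offset of 1, with the second-brightest probe sets, with a replicate block, with the compared groups alone and without both arrays of high Gapdh ratio, and ran from 0 to 1 when single arrays were left out. The count for the WT response, 1, became 0 with an offset of 1, the mean of probe sets, the second-brightest probe sets, the replicate block or the compared groups alone, and 2 (Star and Fdx1) with array weights or without both arrays, with 0 to 1 on leaving out single arrays. The count for the difference between responses, 0, became 1 (Cyp11a1) with an offset of 64, the deposited scaling, median centring, a filter at a mean of 7, array weights or without both arrays, with 0 to 1 on leaving out single arrays. The bERKO response kept 4 to 5 calls, and the genotype comparison after PMSG 0. With the replicate block the counts were 0, 0, 5, 0 and 0 in the order genotype after PMSG, genotype after hCG, bERKO response, WT response and difference of responses. The deviations of same-numbered arrays from their group means were little correlated (from -0.044 to 0.12). With so few arrays per group, these values cannot settle whether a shared number marks paired samples. Signs changed as follows. Hsd17b1 between genotypes after PMSG was 0.0725 as deposited, 0.32 median-centred and 0.0045 without both arrays, and -0.28 to 0.0045 on leaving out single arrays. Cyp17a1 in the bERKO response was 0.0936 as deposited and -0.58 to 0.24 on leaving out single arrays, and between genotypes after PMSG -0.0326 to 0.82. Cyp11a1 between genotypes after PMSG was 0.38 with the second-brightest probe set, and in the WT response 0.25 without both arrays and -1.47 to 0.25 on leaving out single arrays. With the second-brightest probe set Hsd17b11 in the bERKO response was 0.38 and Cebpb in the WT response -0.63. Esr2 in the bERKO response was -0.24 median-centred, -0.0939 with array weights, -0.0803 without both arrays and -0.082 to 0.18 on leaving out single arrays. Among related genes, the calls held in 19 of 23 alternatives for Stard4, 19 of 23 for Fshr, 10 of 23 for Foxl2 and 9 of 22 for Cyp11b1 between genotypes after hCG, in 7 of 23 for Hsd17b11 in the bERKO response, and in 14 of 23 for Stard4, 16 of 23 for Nr4a1 and 9 of 23 for Cebpb in the WT response. The cause of these changes was not tested. The share of calls that were higher moved with the scaling: after hCG between genotypes 288 of 577 calls (49.9%) were higher, 39.1% of 565 as deposited and 66.5% of 535 median-centred, and in the bERKO response 37.2% of 3455 calls, 43% of 3345 and 24.3% of 3969. Median centring moved the median of all genes to -0.41 in the bERKO response. Without the normalization, in the WT response 43.3% of 233 calls were higher, with 18.1% of 397 median-centred and 34.9% of 384 in the fit used. Genes near the floor of 4 have understated fold changes.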

Other observations

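Genes in this paragraph were chosen after their values were seen. Hsd3b1, which makes progesterone from pregnenolone, was called in no comparison, with levels of 14.72, 14.81 and 14.67 on the bERKO hCG arrays against 14.44, 14.56 and 14.65 on the WT hCG arrays. The nuclear receptor genes Nr5a1 and Nr5a2, whose products bind promoters of steroidogenic genes, were also called in no comparison.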
